A study of Homo sapiens with 12 samples.

Results

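The BCL2 family decides whether the outer membrane of the mitochondrion is breached during apoptosis, and 10 of its genes were followed here in a breast cancer line under paclitaxel. The 10 genes were taken by symbol. They are the BH3-only genes PMAIP1, BCL2L11 and BBC3, the pore-forming genes BAX and BAK1, and the anti-apoptotic genes MCL1, BCL2L1, BCL2L2, BCL2 and BCL2A1. All 10 were among the 25049 genes counted, and all 10 were among the 21974 genes left by a filter on low counts.

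The cells were MDA-MB-231b, a bone-tropic derivative of the established human triple-negative breast cancer line MDA-MB-231 that had been recovered from the bone marrow of athymic nude mice. There were 4 groups of 3 libraries each: GLI2 KO cells in 50 nM paclitaxel, GLI2 KO cells in DMSO, WT cells in 50 nM paclitaxel and WT cells in DMSO, all treated for 2 days. Editing used lentiviral CRISPR-Cas9 with a guide against GLI2, a transcription factor of the Hedgehog pathway, or a guide with no target, which the WT samples are not stated to have carried; GLI2 KO and WT are the labels' names for the genotypes. The sources used here do not say whether each genotype was 1 clone or a pool, nor whether replicate libraries stem from different cultures. Each p-value therefore covers library-to-library spread that may be technical.

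As background, anti-apoptotic members hold the pore-forming proteins BAX and BAK in check, and BH3-only proteins are the stress sensors that bind the anti-apoptotic members or engage BAX and BAK directly. Paclitaxel stabilises microtubules and blocks mitosis, and during a prolonged mitotic block the MCL1 protein is lost while BIM and NOXA, the products of BCL2L11 and PMAIP1, are among the proteins that set whether a cell dies. Much of this control acts on protein, which was not measured here.

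The proximal promoters of the 3 BH3-only genes are shown because these stress sensors include members that rose with paclitaxel in both genotypes (PMAIP1 and BCL2L11) and the member whose paclitaxel effect was more positive in GLI2 KO than in WT cells (BBC3). Each is the RefSeq GRCh38.p14 sequence from 250 bases before to 50 bases after the start of transcription, 5′ to 3′ on the gene's strand. Capitals mark matches, searched on both strands, to the letters ACGTCA (core of the cyclic AMP response element) in PMAIP1 at chr18:59899746-59900045 on the plus strand, GTAAACA (forkhead, FOXO type) in BCL2L11 at chr2:111120664-111120963 on the plus strand, and CACGTG (E-box) followed by TGANTCA (AP-1) in BBC3 at chr19:47232618-47232917 on the minus strand.
PMAIP1: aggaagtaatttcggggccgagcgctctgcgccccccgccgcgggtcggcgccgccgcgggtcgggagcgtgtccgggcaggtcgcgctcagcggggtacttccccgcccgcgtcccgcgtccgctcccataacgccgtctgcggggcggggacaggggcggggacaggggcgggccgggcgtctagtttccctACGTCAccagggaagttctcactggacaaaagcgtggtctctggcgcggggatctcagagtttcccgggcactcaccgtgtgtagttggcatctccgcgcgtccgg
BCL2L11: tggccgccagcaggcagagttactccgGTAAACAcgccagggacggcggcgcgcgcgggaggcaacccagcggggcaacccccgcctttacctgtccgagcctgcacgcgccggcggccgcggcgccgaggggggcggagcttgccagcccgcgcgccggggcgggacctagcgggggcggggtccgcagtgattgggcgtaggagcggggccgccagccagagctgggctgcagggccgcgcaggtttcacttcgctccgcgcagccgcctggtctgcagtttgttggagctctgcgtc
BBC3: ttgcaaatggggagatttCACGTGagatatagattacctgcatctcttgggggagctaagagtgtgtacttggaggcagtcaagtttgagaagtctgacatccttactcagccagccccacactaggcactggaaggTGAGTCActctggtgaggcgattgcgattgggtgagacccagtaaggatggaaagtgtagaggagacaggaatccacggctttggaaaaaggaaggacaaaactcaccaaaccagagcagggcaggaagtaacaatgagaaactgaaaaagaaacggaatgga

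Across the 35116 promoters in the RefSeq table, 7.98% held ACGTCA, 3.42% held GTAAACA, 7.26% held CACGTG and 7.71% held TGANTCA. Promoters were found for 8 of the 10 genes, with MCL1 and BCL2L2 unmatched. The BAX promoter held 4 copies of CACGTG, and the BCL2A1 promoter held 1 match to TGATGNAA (C/EBP-ATF composite), which 3.62% of promoters held. The letters GACCACCCA, the consensus bound by GLI proteins, were in none of the 8 and in 0.236% of all promoters. The matches are descriptions of these windows, and no binding was measured.

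The libraries held 83230948 to 109018776 counts. Between 24923 and 24985 genes had a count in paclitaxel libraries, against 23712 to 24125 in DMSO libraries, and mitochondrial genes took 4.83% to 5.33% of counts in paclitaxel libraries against 3.99% to 4.69% in DMSO libraries. GLI2, the edited gene, was at 3.97, 4.14 and 4.39 CPM (counts scaled to a common library size) in GLI2 KO cells in paclitaxel, 9.28, 8.23 and 10.1 CPM in GLI2 KO cells in DMSO, 6.42, 5.65 and 4.97 CPM in WT cells in paclitaxel, and 10.4, 11.4 and 10.6 CPM in WT cells in DMSO. It was lower in GLI2 KO than in WT cells, with a difference of −26.4% in paclitaxel (edgeR adjusted p = 0.000243) and −14.6% in DMSO (edgeR adjusted p = 0.0253, not called when GLI2 KO DMSO replicate 1 or 2 or WT DMSO replicate 2 was left out), so the transcript was reduced and still present. GLI2 KO DMSO replicate 3 stood farthest from the others of its group, with a chi-square per degree of freedom of 13.7 and 17.9 against its 2 partners, where the other pairs of libraries within groups had 2.90 to 11.7. VIM, a mesenchymal marker of this line, averaged 1865 CPM in GLI2 KO cells in paclitaxel, 2844 CPM in GLI2 KO cells in DMSO, 2178 CPM in WT cells in paclitaxel and 2923 CPM in WT cells in DMSO. Of 6 luminal breast markers 5 were counted, with a summed level of 667 to 694, 546 to 590, 626 to 654 and 492 to 517 CPM in the same order of groups. Most of this sum was KRT8 and KRT18, at 388 and 266 CPM in GLI2 KO cells in paclitaxel. KRT8 was called higher and KRT18 lower in GLI2 KO than in WT cells in both media. PGR had 640 counts over 3 libraries in GLI2 KO cells in DMSO against 1 in WT cells in DMSO.

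To set the genes beside each other, levels were divided by exon length and are given as CPM per kilobase. BCL2L1, which encodes BCL-XL, stood first in every group, with means of 95.2 CPM per kilobase in GLI2 KO cells in paclitaxel, 120 in GLI2 KO cells in DMSO, 84.9 in WT cells in paclitaxel and 109.4 in WT cells in DMSO. MCL1 came next at 82.9, 74.8, 68.5 and 73.7 CPM per kilobase in those groups. PMAIP1, whose product NOXA is known for binding MCL1, followed at 61.6, 45.8, 61.3 and 37.4 CPM per kilobase. BAX, BAK1, BCL2L2 and BCL2L11 took the next places in that order in all 4 groups, between 27.5 CPM per kilobase (BAX in WT cells in DMSO) and 2.75 (BCL2L11 in GLI2 KO cells in DMSO).

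BCL2 and BBC3 came after them. BBC3 stood above BCL2 in GLI2 KO cells in paclitaxel, at 2.657 against 1.958 CPM per kilobase, below it in both WT groups, and the replicates of the 2 genes overlapped in GLI2 KO cells in DMSO. BCL2A1 was last everywhere, at 0.396, 0.424, 0.147 and 0.109 CPM per kilobase. Every other neighbouring pair was separate in all 3 replicates of each group. The order of neighbours depended in part on the length used: with the longest transcript of each gene in place of all exons, BAX stood above PMAIP1 in WT cells in DMSO and overlapped it in GLI2 KO cells in DMSO, and BCL2L11, BBC3 and BCL2 changed places.

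**Figure D1:**
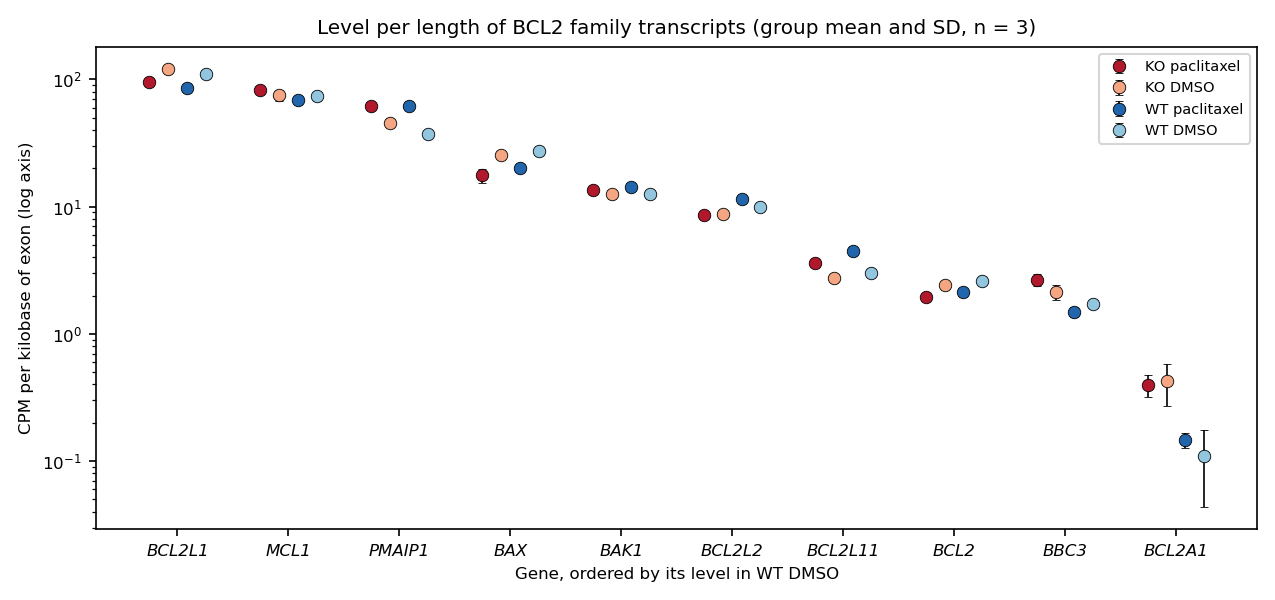
Mean CPM per kilobase of exon (log axis) for the 10 genes in the 4 groups, with the SD of 3 libraries as bars. BCL2L1 leads in every group and BCL2A1 lies lowest, between 0.109 and 0.424 CPM per kilobase.

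Paclitaxel moved most of the family, at shares near those of all genes tested. In GLI2 KO cells 4 members rose and 3 fell, where 65.2% of the genes tested changed (33.0% higher and 32.2% lower) by edgeR at an adjusted p under 0.05. In WT cells 4 rose and 4 fell, where 66.7% of genes tested changed (34.6% higher and 32.1% lower). The paclitaxel and DMSO replicates did not overlap for 6 members in GLI2 KO cells and 8 in WT cells, against 67.2% and 71.5% of all genes tested. The median absolute log2 fold change was 0.31 over the 10 members and 0.34 over all genes in GLI2 KO cells, and 0.32 and 0.35 in WT cells. The signed medians were 0.05 over the members and 0.02 over all genes in GLI2 KO cells, and 0.04 and 0.03 in WT cells. In bulk libraries such as these, fewer cells carrying a transcript and less of it per cell cannot be told apart.

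The genotype comparisons gave 4 members higher and 4 lower in GLI2 KO than in WT cells in paclitaxel, where 45.6% of genes tested differed (23.4% higher and 22.2% lower). In DMSO 4 were higher and 3 lower, where 41.6% differed (22.0% higher and 19.6% lower). The GLI2 KO and WT replicates did not overlap for 8 members in each medium, against 55.2% of all genes tested in paclitaxel and 48.6% in DMSO. The median absolute log2 difference was 0.24 over the members and 0.22 over all genes in paclitaxel, and 0.13 and 0.22 in DMSO. The signed medians were −0.03 over the members and −0.01 over all genes in paclitaxel, and 0.01 and 0.01 in DMSO. With 3 libraries against 3, an exact permutation test of a single gene cannot go below p = 0.1, the value reached by every member whose replicates did not overlap, so calls rest on the edgeR fit over all genes.

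**Figure D2:**
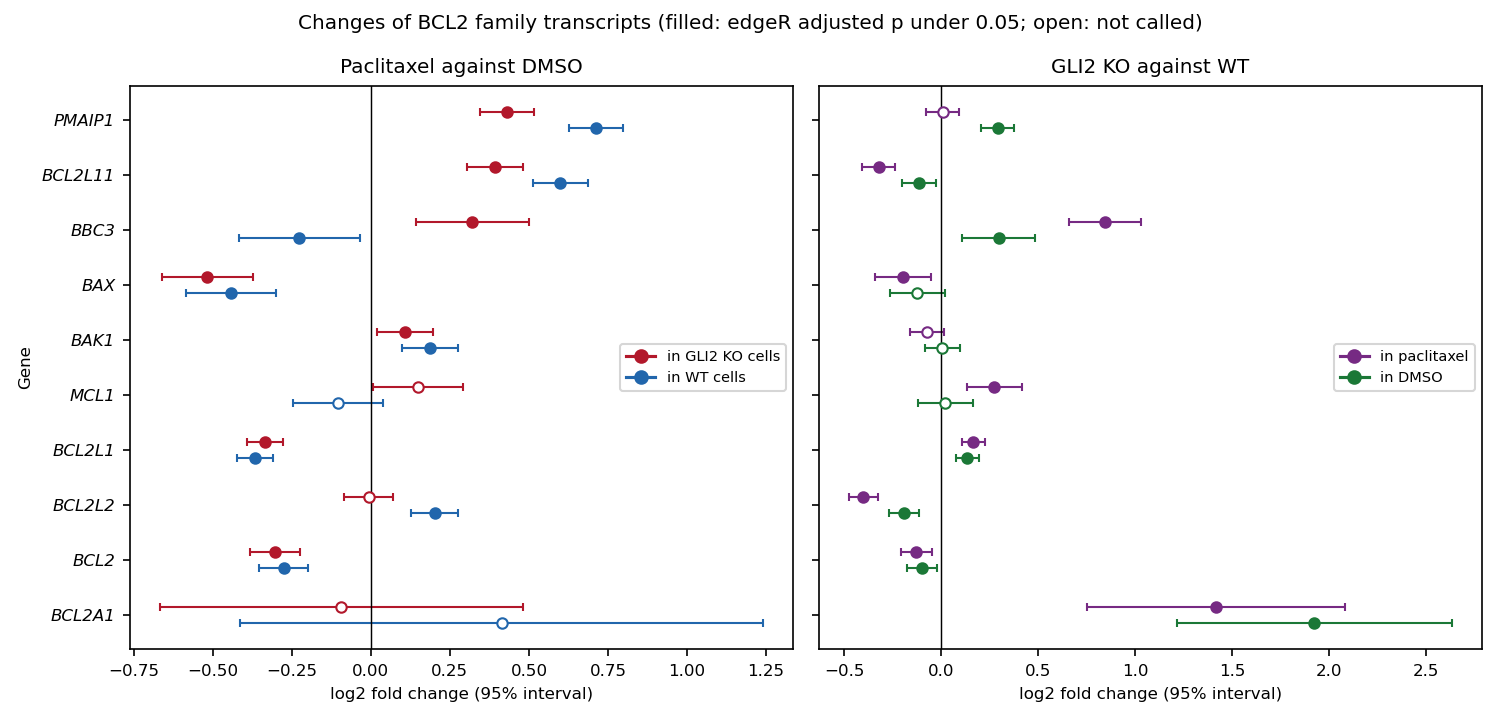
Log2 fold changes with 95% intervals for the 10 genes, for paclitaxel against DMSO in GLI2 KO and WT cells (left) and for GLI2 KO against WT in paclitaxel and in DMSO (right). PMAIP1 and BCL2L11 lie right of zero in both genotypes on the left, BBC3 lies on opposite sides of zero there, and BCL2A1 has the widest intervals.

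Among the BH3-only genes, PMAIP1 and BCL2L11 rose with paclitaxel in both genotypes, and BBC3 differed between them. PMAIP1 encodes NOXA, which pairs chiefly with MCL1 and with the BCL2A1 product. Its level was 136, 138 and 139 CPM in GLI2 KO cells in paclitaxel against 104, 108 and 94.8 CPM in GLI2 KO cells in DMSO. WT cells had 133, 139 and 140 CPM in paclitaxel against 89.4, 80.3 and 81.0 CPM in DMSO. The 2 paclitaxel groups ran through the same range, while in DMSO all 3 GLI2 KO libraries lay above all 3 WT libraries. The rise was 34.7% in GLI2 KO cells (log2 0.43 ± 0.04 SE, edgeR adjusted p = 4.79e-08) and 63.8% in WT cells (log2 0.71 ± 0.04 SE, edgeR adjusted p = 3.01e-11).

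GLI2 KO cells had 22.3% more PMAIP1 than WT cells in DMSO (log2 0.29 ± 0.04 SE, edgeR adjusted p = 1.96e-05). In paclitaxel the difference was 0.01 on the log2 scale (95% interval −0.08 to 0.09, edgeR adjusted p = 0.897). The paclitaxel effect itself was smaller in GLI2 KO than in WT cells, with a difference of −0.28 ± 0.06 SE on the log2 scale (edgeR adjusted p = 0.00486), and this call held in all 21 alternatives, where the difference lay between −0.34 and −0.24.

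BCL2L11 encodes BIM, a BH3-only protein that binds all the anti-apoptotic members. It stood at 23.0, 24.7 and 24.4 CPM in GLI2 KO cells in paclitaxel against 18.2, 18.6 and 18.2 CPM in GLI2 KO cells in DMSO. The WT values were 30.0, 29.4 and 30.6 CPM in paclitaxel against 19.1, 21.1 and 19.4 CPM in DMSO. Neither genotype's drug and DMSO libraries overlapped, and the 3 WT libraries in paclitaxel were the highest of all 12. Paclitaxel raised it by 31.2% in GLI2 KO cells (log2 0.39 ± 0.05 SE, edgeR adjusted p = 3.95e-08) and by 51.5% in WT cells (log2 0.60 ± 0.04 SE, edgeR adjusted p = 1.53e-11).

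GLI2 KO cells in paclitaxel had less BCL2L11 than WT cells in paclitaxel, by −19.96% (log2 −0.32 ± 0.04 SE, edgeR adjusted p = 1.06e-06). In DMSO the difference was −0.11 ± 0.05 SE on the log2 scale (edgeR adjusted p = 0.0478; −0.07 without WT DMSO replicate 2), a call lost in 13 of 22 alternatives, among them leaving out any single library other than GLI2 KO paclitaxel replicate 3 and WT DMSO replicate 1. The paclitaxel effect was smaller in GLI2 KO cells, with a difference of −0.21 ± 0.06 SE on the log2 scale (edgeR adjusted p = 0.0302), and 7 of 21 alternatives lost that call, with library totals and with 1 of 6 libraries left out (GLI2 KO DMSO replicate 2, GLI2 KO paclitaxel replicate 1, WT DMSO replicates 1 and 3, WT paclitaxel replicates 1 and 3). On the opposite strand the long noncoding gene MIR4435-2HG shares 10.9% of the exon bases of BCL2L11. It held 6119 to 10884 counts per library and was higher in GLI2 KO than in WT cells, by 0.28 on the log2 scale in paclitaxel and 0.22 in DMSO, the opposite direction to BCL2L11; the sources used here do not say whether counting used strand.

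BBC3 encodes PUMA, a BH3-only protein that binds every anti-apoptotic member. Its level was 9.04, 8.88 and 7.42 CPM in GLI2 KO cells in paclitaxel against 6.85, 7.63 and 5.78 CPM in GLI2 KO cells in DMSO. Among WT libraries it was 5.16, 4.61 and 4.34 CPM in paclitaxel against 5.66, 5.49 and 5.34 CPM in DMSO. All 6 GLI2 KO libraries lay above all 6 WT libraries. Within GLI2 KO cells the lowest paclitaxel library fell inside the DMSO range, whereas in WT cells the paclitaxel libraries all lay below the DMSO libraries.

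In paclitaxel, GLI2 KO cells had 1.79-fold the BBC3 of WT cells (log2 0.84 ± 0.09 SE, edgeR adjusted p = 1.10e-07), and the log2 difference stayed between 0.79 and 0.93 in 22 alternatives. In DMSO the excess was 22.7% (log2 0.30 ± 0.10 SE, edgeR adjusted p = 0.0154), not called without GLI2 KO DMSO replicate 2 (adjusted p = 0.115) or without WT DMSO replicate 3 (adjusted p = 0.0542). Paclitaxel raised BBC3 by 24.9% in GLI2 KO cells (log2 0.32 ± 0.09 SE, edgeR adjusted p = 0.00395). In WT cells it fell by 14.5% (log2 −0.23 ± 0.10 SE, edgeR adjusted p = 0.0458), and 11 of 22 alternatives lost this call, with a log2 change of −0.07 under scaling by library totals, and with each of GLI2 KO DMSO replicate 1, WT DMSO replicates 1, 2 and 3 and WT paclitaxel replicates 2 and 3 deciding it. The paclitaxel effect was more positive in GLI2 KO than in WT cells by 0.55 ± 0.13 SE on the log2 scale (edgeR adjusted p = 0.00855), a call that held in all 21 alternatives with a difference between 0.44 and 0.64.

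**Figure D3:**
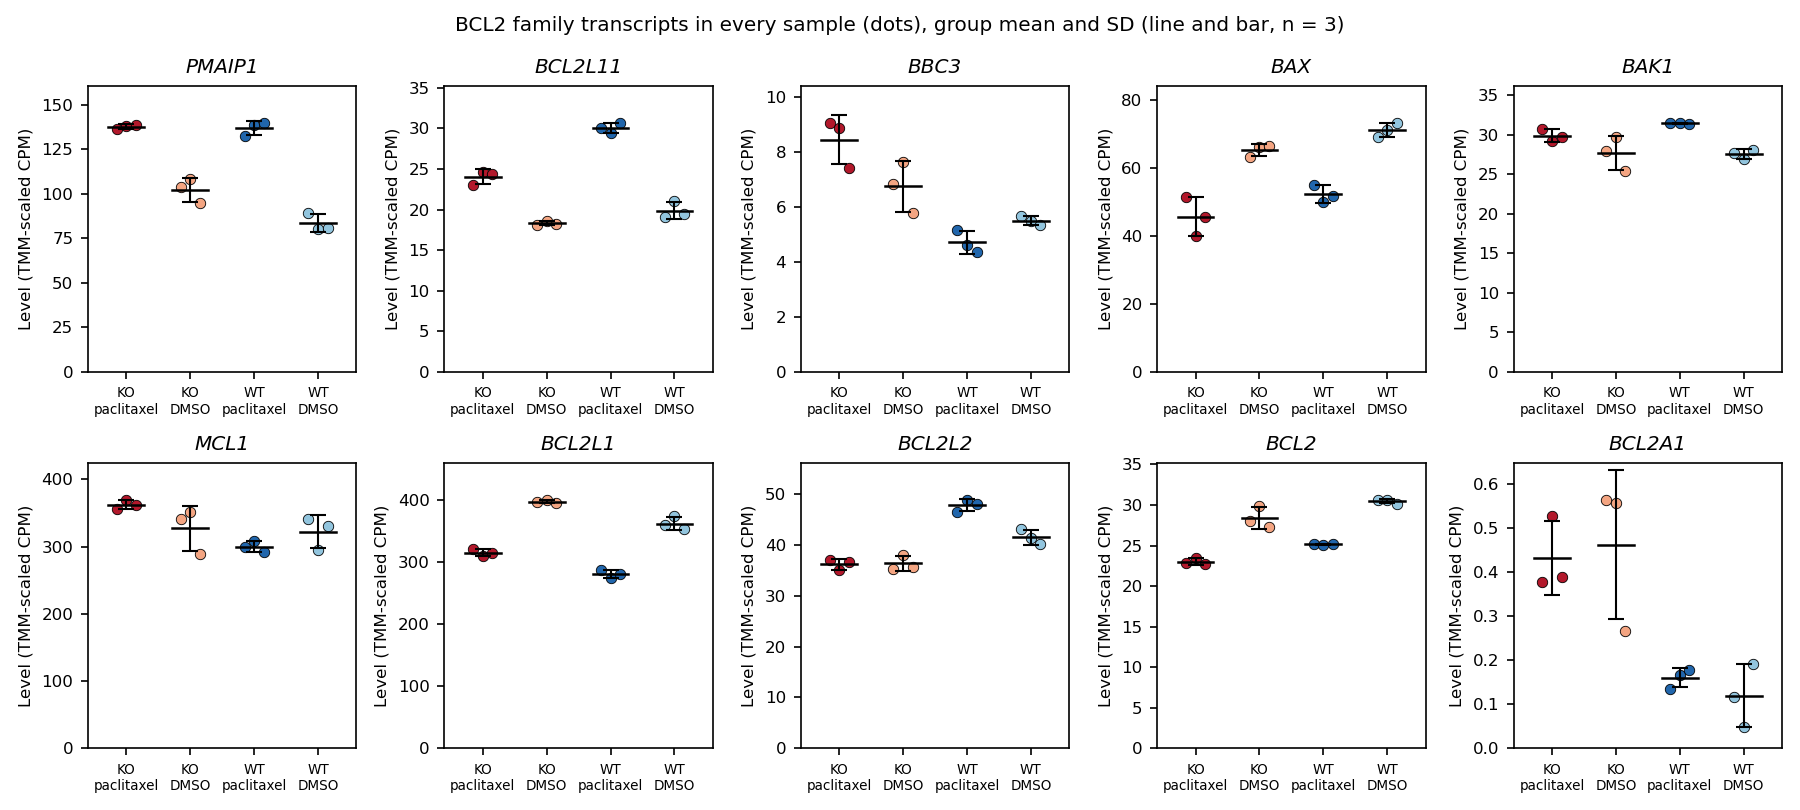
CPM of each of the 10 genes in every library (dots), with the mean and SD of the 3 libraries of a group. BBC3 is higher in all 6 GLI2 KO libraries than in all 6 WT libraries, and PMAIP1 and BCL2L11 are higher in paclitaxel than in DMSO in both genotypes.

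The pore-forming genes parted with paclitaxel, BAX falling in both genotypes and BAK1 rising slightly. BAX and BAK1 encode the proteins that oligomerise to perforate the mitochondrial outer membrane. BAX stood at 51.4, 39.9 and 45.5 CPM in GLI2 KO cells in paclitaxel against 63.1, 66.2 and 66.4 CPM in GLI2 KO cells in DMSO. WT cells had 55.1, 50.0 and 51.8 CPM in paclitaxel against 69.0, 71.1 and 73.1 CPM in DMSO. Every paclitaxel library of either genotype lay below every DMSO library. It fell by 30.1% in GLI2 KO cells (log2 −0.52 ± 0.07 SE, edgeR adjusted p = 6.65e-05) and fell by 26.4% in WT cells (log2 −0.44 ± 0.07 SE, edgeR adjusted p = 0.000210).

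BAX was lower in GLI2 KO than in WT cells in paclitaxel, by −12.8% (edgeR adjusted p = 0.0466), with GLI2 KO paclitaxel replicate 1 inside the WT range. That call was lost in 12 of 22 alternatives, among them leaving out any single library other than GLI2 KO paclitaxel replicate 1 and WT paclitaxel replicate 2, and without GLI2 KO paclitaxel replicate 2 the log2 difference was −0.11. In DMSO the log2 difference was −0.12 (95% interval −0.26 to 0.02, edgeR adjusted p = 0.209), although the replicates did not overlap, and it was called without GLI2 KO paclitaxel replicate 1 or 2 and in a fit of only the 2 groups compared (adjusted p = 0.00695). The difference of the paclitaxel effect was −0.08 on the log2 scale (95% interval −0.28 to 0.13, edgeR adjusted p = 0.712).

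BAK1 was at 30.8, 29.2 and 29.7 CPM in GLI2 KO cells in paclitaxel against 28, 29.7 and 25.5 CPM in GLI2 KO cells in DMSO. The WT values were 31.5, 31.5 and 31.4 CPM in paclitaxel against 27.8, 26.9 and 28.1 CPM in DMSO. The GLI2 KO groups overlapped and the WT groups did not. The rise of 13.9% in WT cells (edgeR adjusted p = 0.000775) held in all 22 alternatives, while that of 7.77% in GLI2 KO cells (edgeR adjusted p = 0.0397) was lost in 11. Among these were all fits with a single library left out, other than GLI2 KO DMSO replicate 2, GLI2 KO paclitaxel replicate 2 and WT paclitaxel replicate 3, and without GLI2 KO DMSO replicate 3 the log2 value was 0.04. Scaling by library totals gave 0.29 in GLI2 KO cells and 0.34 in WT cells, both called. Between genotypes the log2 difference was −0.07 in paclitaxel (95% interval −0.16 to 0.01, edgeR adjusted p = 0.191) and 0.01 in DMSO (95% interval −0.08 to 0.10, edgeR adjusted p = 0.939). The GLI2 KO and WT replicates in paclitaxel did not overlap, and upper-quartile factors gave a called difference there (−0.11, edgeR adjusted p = 0.0411).

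Among the anti-apoptotic genes, BCL2L1 and BCL2 fell with paclitaxel in both genotypes. BCL2L1 was at 321, 310 and 316 CPM in GLI2 KO cells in paclitaxel against 397, 401 and 396 CPM in GLI2 KO cells in DMSO. Among WT libraries it was 288, 275 and 281 CPM in paclitaxel against 359, 374 and 354 CPM in DMSO. No 2 groups overlapped, and GLI2 KO lay above WT in each medium. With paclitaxel it fell by 20.7% in GLI2 KO cells (log2 −0.34 ± 0.03 SE, edgeR adjusted p = 3.75e-10) and fell by 22.4% in WT cells (log2 −0.37 ± 0.03 SE, edgeR adjusted p = 7.49e-11); scaling by library totals left −0.16 and −0.21, still called.

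GLI2 KO cells held 12.2% more BCL2L1 than WT cells in paclitaxel (edgeR adjusted p = 4.72e-05) and 9.77% more in DMSO (edgeR adjusted p = 0.000555). The drug effect differed between genotypes by 0.03 on the log2 scale (95% interval −0.05 to 0.11, edgeR adjusted p = 0.693). The antisense gene ABALON shares 43.0% of the exon bases of BCL2L1 and held 36 to 87 counts per library, against at least 24769 for BCL2L1. The effect of this overlap on the BCL2L1 counts was not tested. Gene counts do not separate the BCL-XL transcript from the short pro-apoptotic splice form of the same gene.

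BCL2, the founding anti-apoptotic member, was at 22.9, 23.5 and 22.8 CPM in GLI2 KO cells in paclitaxel against 28, 29.9 and 27.3 CPM in GLI2 KO cells in DMSO. WT cells had 25.2, 25.1 and 25.2 CPM in paclitaxel against 30.6, 30.6 and 30.2 CPM in DMSO. Again no 2 groups overlapped, here with GLI2 KO below WT. With paclitaxel BCL2 fell by 18.9% in GLI2 KO cells (edgeR adjusted p = 3.87e-07) and fell by 17.4% in WT cells (edgeR adjusted p = 1.38e-06), with log2 changes of −0.13 and −0.12 under library totals, both still called. GLI2 KO was below WT, with a difference of −8.51% in paclitaxel (edgeR adjusted p = 0.0107) and −6.75% in DMSO (edgeR adjusted p = 0.0436), the DMSO call lost in 12 of 22 alternatives, among them leaving out any single library other than GLI2 KO DMSO replicate 2 and GLI2 KO paclitaxel replicate 3.

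MCL1 encodes a short-lived anti-apoptotic protein and had 1 low library among the DMSO replicates of each genotype. It stood at 355, 370 and 362 CPM in GLI2 KO cells in paclitaxel against 341, 351 and 288 CPM in GLI2 KO cells in DMSO. The WT values were 299, 308 and 292 CPM in paclitaxel against 341, 295 and 331 CPM in DMSO. The 3 GLI2 KO libraries in paclitaxel lay above the other 9, and the low DMSO libraries were GLI2 KO replicate 3 and WT replicate 2. In paclitaxel, GLI2 KO cells had 20.9% more MCL1 than WT cells (log2 0.27 ± 0.07 SE, edgeR adjusted p = 0.0105), and all 22 alternatives kept the call. In DMSO the log2 difference was 0.02 (95% interval −0.12 to 0.16, edgeR adjusted p = 0.859).

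The intervals given here rest on a normal quantile and are narrower than the edgeR test implies. The change of MCL1 with paclitaxel did not pass the test in either genotype. It was 0.15 on the log2 scale in GLI2 KO cells (95% interval 0.01 to 0.29, edgeR unadjusted p = 0.0682, edgeR adjusted p = 0.0973) and −0.11 in WT cells (95% interval −0.25 to 0.04, edgeR unadjusted p = 0.178, edgeR adjusted p = 0.226). In GLI2 KO cells 8 of 22 alternatives called it: DESeq2, limma-voom, no robust variance estimation, a minimum count of 50, only the 2 groups compared, upper-quartile factors (0.27), library totals (0.33, adjusted p = 0.00217) and leaving out GLI2 KO DMSO replicate 2. In WT cells 2 did, those without GLI2 KO DMSO replicate 3 and without WT DMSO replicate 2. The difference between these effects was 0.25 ± 0.10 SE (edgeR adjusted p = 0.148), called in 4 of 21 alternatives, by DESeq2 (adjusted p = 0.0128), by limma-voom (adjusted p = 0.0386), without robust variance estimation (adjusted p = 0.0419) and without WT DMSO replicate 2 (adjusted p = 0.0455).

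BCL2L2 encodes BCL-W, an anti-apoptotic member that differed between genotypes in both media. It was at 37.0, 35.0 and 36.6 CPM in GLI2 KO cells in paclitaxel against 35.3, 38 and 35.7 CPM in GLI2 KO cells in DMSO. Among WT libraries it was 46.5, 48.9 and 48.0 CPM in paclitaxel against 43.1, 41.3 and 40.2 CPM in DMSO. The 2 GLI2 KO groups overlapped, and all 6 of their libraries lay below all 6 WT libraries. GLI2 KO cells had less than WT cells, by −24.3% in paclitaxel (log2 −0.40 ± 0.04 SE, edgeR adjusted p = 3.76e-09) and −12.5% in DMSO (log2 −0.19 ± 0.04 SE, edgeR adjusted p = 0.000232).

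With paclitaxel BCL2L2 rose by 14.98% in WT cells (edgeR adjusted p = 6.10e-05). In GLI2 KO cells the log2 change was −0.01 (95% interval −0.08 to 0.07, edgeR adjusted p = 0.894), and it was called higher under upper-quartile factors (0.12) and library totals (0.17). The effect was lower in GLI2 KO than in WT cells, with a difference of −0.21 ± 0.05 SE on the log2 scale (edgeR adjusted p = 0.0126), a call kept in all 21 alternatives. The readthrough gene BCL2L2-PABPN1 shares 19.4% of the exon bases of BCL2L2 and held 14 to 45 counts per library, against 2754 to 4859 for BCL2L2. On the opposite strand PPP1R3E shares 4.92% of them and held 1962 to 2604 counts per library. With paclitaxel PPP1R3E was called lower, by log2 −0.30 in GLI2 KO cells and −0.20 in WT cells. Between genotypes it was not called, at −0.03 in paclitaxel and 0.07 in DMSO. Its part in the BCL2L2 counts was not tested.

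BCL2A1 encodes BFL-1, an anti-apoptotic member and NF-κB target best known from blood cells, and it was near the limit of detection. It had 34 to 49 counts per library in GLI2 KO cells in paclitaxel, 24 to 49 in GLI2 KO cells in DMSO, 12 to 18 in WT cells in paclitaxel and 4 to 17 in WT cells in DMSO. These are 0.377, 0.528 and 0.390 CPM, 0.564, 0.556 and 0.267 CPM, 0.136, 0.166 and 0.178 CPM, and 0.116, 0.0489 and 0.192 CPM in the same order, where 3 counts correspond to 0.0272 to 0.0385 CPM. All 6 GLI2 KO libraries lay above all 6 WT libraries. In WT cells in DMSO 1 of 3 libraries passed the level that the filter on low counts asks for, and all 3 passed in each other group.

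BCL2A1 was 2.67-fold higher in GLI2 KO than in WT cells in paclitaxel (log2 1.42 ± 0.34 SE, edgeR adjusted p = 0.00125) and 3.79-fold higher in DMSO (log2 1.92 ± 0.36 SE, edgeR adjusted p = 0.000100). With paclitaxel the log2 change was −0.09 in GLI2 KO cells (95% interval −0.67 to 0.48, edgeR adjusted p = 0.797) and 0.41 in WT cells (95% interval −0.41 to 1.24, edgeR adjusted p = 0.398). Beside this, 4 of 7 haematopoietic marker genes were counted (PTPRC, CD14, ITGAM, SPI1), and the other 3 were not analysed here. Their summed level was 2.16 to 2.72 CPM in GLI2 KO cells in paclitaxel, 0.654 to 0.941 CPM in GLI2 KO cells in DMSO, 1.85 to 2.18 CPM in WT cells in paclitaxel and 0.407 to 0.425 CPM in WT cells in DMSO, with none of the 4 at 0 in any group. All 4 rose with paclitaxel in both genotypes. PTPRC in both media and CD14 in DMSO were called higher in GLI2 KO than in WT cells, and the rest were not called. Those log2 differences were −0.40 (CD14), −0.41 (SPI1) and 0.32 (ITGAM) in paclitaxel, and −0.48 (ITGAM) and 1.26 (SPI1) in DMSO. The part of these transcripts in the BCL2A1 difference was not tested.

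The paclitaxel effect differed between genotypes for 4 of the 10 members, 1 more positive in GLI2 KO cells (BBC3) and 3 more negative (PMAIP1, BCL2L11, BCL2L2), where 13.5% of genes tested differed (6.56% higher and 6.93% lower). The median absolute difference was 0.21 on the log2 scale over the members and 0.16 over all genes tested. The 2 paclitaxel effects and the 2 genotype differences share their libraries, so they are given side by side and not as independent counts.

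Ratios of counts within a library do not depend on scaling, and they were taken for pairs of members. PMAIP1 had 38.3, 37.4 and 38.3 counts per 100 counts of MCL1 in GLI2 KO cells in paclitaxel against 30.5, 30.8 and 32.9 in GLI2 KO cells in DMSO, and 44.3, 45.0 and 47.8 in WT cells in paclitaxel against 26.2, 27.2 and 24.5 in WT cells in DMSO. All 4 groups were separate, with WT cells highest in paclitaxel and lowest in DMSO. BCL2L11 had 7.62 ± 0.42 counts per 100 counts of BCL2L1 in GLI2 KO cells in paclitaxel against 4.60 ± 0.04 in GLI2 KO cells in DMSO, and 10.7 ± 0.2 in WT cells in paclitaxel against 5.47 ± 0.17 in WT cells in DMSO (SD, n = 3 each).

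BBC3 had 2.81, 2.87 and 2.35 counts per 100 counts of BCL2L1 in GLI2 KO cells in paclitaxel, against 1.72, 1.90 and 1.46 in GLI2 KO cells in DMSO. In WT cells the ratio was 1.79, 1.68 and 1.55 in paclitaxel against 1.57, 1.47 and 1.51 in DMSO, so that GLI2 KO cells in paclitaxel stood alone and the other 3 groups overlapped in part. MCL1 had 115 ± 4 counts per 100 counts of BCL2L1 in GLI2 KO cells in paclitaxel against 82.1 ± 8.0 in GLI2 KO cells in DMSO, and 107 ± 5 in WT cells in paclitaxel against 89.0 ± 8.8 in WT cells in DMSO (SD, n = 3 each). The paclitaxel and DMSO libraries were separate in both genotypes. For the pore-forming pair, BAX had 152 ± 15 counts per 100 counts of BAK1 in GLI2 KO cells in paclitaxel against 236 ± 21 in GLI2 KO cells in DMSO, and 166 ± 8 in WT cells in paclitaxel against 257 ± 8 in WT cells in DMSO (SD, n = 3 each).

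**Figure D4:**
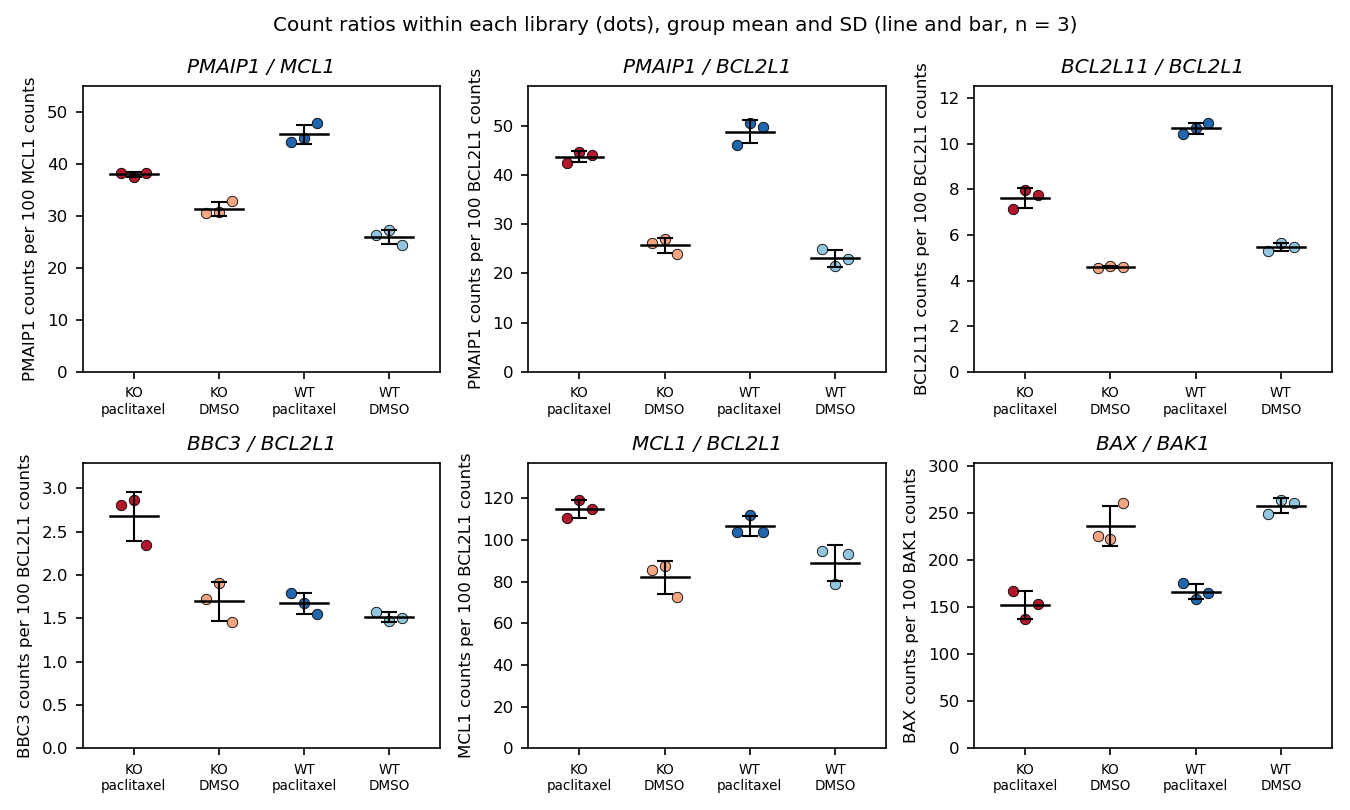
Counts of one gene per 100 counts of another within each library (dots), with the mean and SD of 3 libraries, for 6 pairs. PMAIP1 per 100 counts of MCL1 is highest in WT cells in paclitaxel, at 44.3 to 47.8, and lowest in WT cells in DMSO, at 24.5 to 27.2.

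Genes lying next to a member were checked, since the genotypes may differ in whole stretches of chromosome. The median log2 difference of the 50 nearest genes tested lay between −0.17 and 0.08 over the 10 members for GLI2 KO against WT in paclitaxel, and between −0.20 and 0.07 in DMSO. For BCL2L2 on chromosome 14 the neighbours' median was −0.17 in paclitaxel, where BCL2L2 itself was −0.40, and −0.20 in DMSO, where BCL2L2 was −0.19. For BAX on chromosome 19 the neighbours' median in DMSO was −0.13, beside −0.12 for BAX, and in paclitaxel it was −0.03, beside −0.20 for BAX. The neighbours of BBC3, on the same chromosome, had medians of 0.01 in paclitaxel and −0.01 in DMSO, beside 0.84 and 0.30 for BBC3.

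The genes whose profile over the 12 libraries was most like that of a member were taken by the root mean square (RMS) difference of centred log2 CPM, for the 3 members with the widest range of group means among those averaging at least 1 CPM. For BBC3, whose own RMS was 0.34, they were HDAC5 (0.11), GPR162 (0.13) and STX18 (0.14). HDAC5 had 34.3, 32.3 and 29.9 CPM in GLI2 KO cells in paclitaxel, 29.1, 29.2 and 28.2 CPM in GLI2 KO cells in DMSO, 22.0, 20.4 and 18.6 CPM in WT cells in paclitaxel and 23.5, 22.4 and 23.8 CPM in WT cells in DMSO. For PMAIP1, whose own RMS was 0.31, they were SPRY2 (0.04), ZNF778 (0.06) and ZNF654 (0.07). For BCL2L11, whose own RMS was 0.28, they were LINC00839 (0.05), TET3 (0.05) and PNO1 (0.06).

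The rest of the family was taken as a list of 13 genes, 12 of which were counted and tested. With paclitaxel 5 rose and 6 fell in each genotype, where 65.2% of all genes tested changed in GLI2 KO cells and 66.7% in WT cells. Between genotypes 2 were higher and 3 lower in GLI2 KO than in WT cells in each medium. Of all genes tested 45.6% differed in paclitaxel and 41.6% in DMSO. The median log2 change with paclitaxel was −0.06 in GLI2 KO cells and −0.13 in WT cells, where all genes had 0.02 and 0.03. HRK, a BH3-only gene, averaged 0.415 ± 0.066 CPM in paclitaxel against 0.0537 ± 0.0408 CPM in DMSO in GLI2 KO cells, and 0.303 ± 0.113 against 0.0472 ± 0.0214 CPM in WT cells (SD, n = 3 each). It rose by 2.90 and 2.63 on the log2 scale, from few counts. BCL2L10 had 32 counts over 3 libraries in paclitaxel against 3 in DMSO in GLI2 KO cells, and 45 against 1 in WT cells. Scaled by library totals, the ratio was 10.5 (95% counting interval 3.30 to 53.8) in GLI2 KO cells. In WT cells that ratio was 49.1 (95% counting interval 8.37 to 1980). The edgeR fit with TMM factors gave 8.45-fold in GLI2 KO cells and 32.5-fold in WT cells. BID, which links death receptors to BAX and BAK, was at 23.5, 23.6 and 20.8 CPM in GLI2 KO cells in paclitaxel, 29.6, 28.7 and 28 CPM in GLI2 KO cells in DMSO, 25.8, 26.0 and 26.3 CPM in WT cells in paclitaxel and 36.5, 37.4 and 34.2 CPM in WT cells in DMSO. With paclitaxel its log2 change was −0.35 in GLI2 KO cells and −0.47 in WT cells, both called, and it was lower in GLI2 KO than in WT cells in both media.

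Beside the BCL2 family, 13 genes of the apoptosome and caspases were tested. In GLI2 KO cells 1 rose and 10 fell with paclitaxel, where 33.0% of all genes tested were higher and 32.2% lower. In WT cells 1 rose and 4 fell, where 34.6% were higher and 32.1% lower. Whether these counts differ between genotypes was not tested. By a test of the difference for each gene, the paclitaxel effect was more negative in GLI2 KO cells for 3 of the 13 (CASP2, CYCS and HTRA2). Of all genes tested 6.93% were more negative. HTRA2 shares 20.8% of its exon bases with LOXL3 on the opposite strand. The counts of the 13 called with paclitaxel depended on scaling. Library totals gave 3 higher and 2 lower in GLI2 KO cells and 6 higher and 1 lower in WT cells. The 3 differences of effect were called there as well. The median log2 change over the 13 was −0.18 in GLI2 KO cells and −0.07 in WT cells, where all genes had 0.02 and 0.03, and library totals moved the all-gene median up by 0.18 and 0.16.

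Of 7 inhibitor of apoptosis genes, 2 rose and 2 fell with paclitaxel in GLI2 KO cells, where 65.2% of all genes tested changed. In WT cells 2 rose and 4 fell, where 66.7% changed. The median log2 changes of the 7 were −0.07 in GLI2 KO cells and −0.12 in WT cells. With library totals 5 were called higher and 1 lower in GLI2 KO cells, and 2 higher and 1 lower in WT cells. BIRC3 was at 38.2, 41.7 and 37.6 CPM in GLI2 KO cells in paclitaxel against 22.2, 24.3 and 18.0 CPM in GLI2 KO cells in DMSO. WT cells had 53.8, 57.6 and 55.8 CPM in paclitaxel against 32.1, 27.2 and 30.9 CPM in DMSO. It rose by 0.86 and 0.89 on the log2 scale with paclitaxel, and was lower in GLI2 KO than in WT cells by log2 −0.51 in paclitaxel and −0.49 in DMSO. BIRC5, which encodes survivin and serves in mitosis, fell with paclitaxel, with a log2 change of −0.47 in GLI2 KO cells and −0.30 in WT cells.

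Among 7 tested genes that set MCL1 protein turnover, 4 were higher and 2 lower in GLI2 KO than in WT cells in paclitaxel. Of all genes tested 45.6% differed there. The 4 higher were USP13 (log2 0.46), MARCHF5 (0.17), USP9X (0.10) and HUWE1 (0.08), and the 2 lower were FBXW7 (−1.14) and CDC20 (−0.18). What these differences mean for MCL1 protein was not tested. In DMSO 1 of the 7 was higher and 2 lower, where 41.6% of all genes differed. The median log2 differences of the 7 were 0.08 in paclitaxel and 0.02 in DMSO. FBXW7, which encodes the recognition subunit of a ubiquitin ligase for MCL1, was at 17.4, 17.5 and 18.6 CPM in GLI2 KO cells in paclitaxel against 37.6, 39.0 and 41.5 CPM in WT cells in paclitaxel, and at 16.0, 16.9 and 15.7 CPM in GLI2 KO cells in DMSO against 31.1, 29.8 and 30.8 CPM in WT cells in DMSO. The difference was −1.14 on the log2 scale in paclitaxel (edgeR adjusted p = 2.54e-16) and −0.92 in DMSO (edgeR adjusted p = 1.71e-14). USP13, a deubiquitinase of MCL1, was at 22.5, 22.3 and 21.9 CPM in GLI2 KO cells in paclitaxel against 38.5, 38.9 and 39.4 CPM in GLI2 KO cells in DMSO. The WT values were 17.5, 16.1 and 14.8 CPM in paclitaxel against 31.8, 32.5 and 32.9 CPM in DMSO. With paclitaxel its log2 change was −0.81 in GLI2 KO cells and −1.01 in WT cells, both called, and it was higher in GLI2 KO than in WT cells in both media.

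Of 13 transcription factors known to act on BCL2 family genes, 5 rose and 4 fell with paclitaxel in each genotype. Paclitaxel changed 65.2% of all genes tested in GLI2 KO cells and 66.7% in WT cells. Of the 13 factors 5 were higher and 4 lower in GLI2 KO than in WT cells in paclitaxel, and 5 and 3 in DMSO. Between genotypes 45.6% of all genes tested differed in paclitaxel and 41.6% in DMSO. With library totals the counts of the 13 changed by paclitaxel were 7 higher and 2 lower in GLI2 KO cells and 9 higher and 2 lower in WT cells. The counts between genotypes in DMSO were 3 and 3. The median log2 change with paclitaxel was 0.06 in GLI2 KO cells and 0.09 in WT cells. TP73, a transcription factor that can act on BBC3 and PMAIP1, was at 3.12, 2.95 and 2.86 CPM in GLI2 KO cells in paclitaxel against 0.678, 0.521 and 0.592 CPM in WT cells in paclitaxel, and at 6.76, 6.13 and 6.73 CPM in GLI2 KO cells in DMSO against 0.715, 0.745 and 0.949 CPM in WT cells in DMSO. The genotype difference was 2.32 on the log2 scale in paclitaxel (edgeR adjusted p = 1.15e-13) and 3.03 in DMSO (edgeR adjusted p = 8.18e-17).

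DDIT3 encodes CHOP, a factor of the endoplasmic reticulum stress response that can raise BBC3 and BCL2L11. It was at 36.4, 37.2 and 37.0 CPM in GLI2 KO cells in paclitaxel against 10.5, 10.4 and 6.94 CPM in GLI2 KO cells in DMSO. Among WT libraries it was 23.4, 23.0 and 21.9 CPM in paclitaxel against 12.2, 9.48 and 10.6 CPM in DMSO. It rose by log2 1.99 in GLI2 KO cells (edgeR adjusted p = 8.09e-07) and 1.08 in WT cells (edgeR adjusted p = 7.56e-05), and the effect was larger in GLI2 KO cells by 0.92 (edgeR adjusted p = 0.0148). DDIT3 shares 27.2% of its exon bases with MARS on the opposite strand. JUN, a subunit of AP-1, was at 144, 141 and 146 CPM in GLI2 KO cells in paclitaxel against 155, 165 and 119 CPM in GLI2 KO cells in DMSO. WT cells had 262, 261 and 296 CPM in paclitaxel against 165, 134 and 154 CPM in DMSO. It rose in WT cells by log2 0.85 (edgeR adjusted p = 0.000266), and in GLI2 KO cells its log2 change was −0.03 (edgeR adjusted p = 0.870).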

How the data were processed

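RNA was measured by sequencing of polyadenylated RNA in 12 libraries of MDA-MB-231b cells, 3 in each of 4 groups read from the sample titles. The authors deposited a table of raw gene counts, from reads trimmed with Trim Galore 0.6.7 and aligned with STAR to hg38, per the submitters' processing notes. DESeq2 1.36.0 is named there too, while the sources used here do not name the counting tool, the annotation release or the strand setting. The whole-number counts per gene were used as deposited.

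Counts were fitted with edgeR 4.0.16 in R 4.3.3 (TMM factors, filterByExpr with a minimum count of 10, quasi-likelihood F test with robust variance estimation) as 4 group means over 12 libraries, with 8 residual degrees of freedom; p-values were adjusted by Benjamini-Hochberg over 21974 genes (87.7% of those counted) and called under 0.05. Each standard error was the absolute log2 fold change divided by the root of its F statistic. Levels are TMM-scaled CPM from these counts, per kilobase of merged exons where genes are compared. Names, coordinates and exon overlaps come from GENCODE 29 (GRCh38), which matched 93.3% of genes counted; promoters are from RefSeq. Totals of 83230948 to 109018776 counts make 3 counts equal to 0.0272 to 0.0385 CPM; such floors and counting intervals cover counting error only.

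The 5 comparisons were refitted under up to 22 alternatives (other scaling, filters, variance estimation, DESeq2 1.42.0, limma-voom with limma 3.58.1, only the 2 groups compared, and libraries left out). The members, the other gene lists, the motifs and the tests were chosen with earlier results of these data known. Besides the members and GLI2, genes were named as up to 3 called genes with the largest change per list and comparison, and the 3 genes nearest in profile to 3 members. VIM, KRT8, KRT18, PGR, PTPRC, CD14, ITGAM, SPI1, USP9X and the overlapping genes given as context were chosen after their values were seen. A deposited table of normalized values was not used. Results for some genes of these lists are not reported here.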

Additional observations from a re-analysis of the deposited data

Results flagged for a closer look

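The results here stand out because the paclitaxel effect differed between GLI2 KO and WT cells by a test of the difference itself (edgeR, adjusted p under 0.05), with differences given on the log2 scale as the effect in GLI2 KO cells minus that in WT cells. Within the family they were BBC3 (0.55), PMAIP1 (−0.28), BCL2L2 (−0.21) and BCL2L11 (−0.21). BBC3 was the 1 member with effects of opposite sign in the 2 genotypes that were both called, and the WT call was lost in 11 of 22 alternatives.

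Among the other BCL2 family genes BCL2L13 differed by 0.21. Among the apoptosome, caspase and inhibitor of apoptosis genes, CASP2 differed by −0.22, CYCS by −0.20, HTRA2 by −0.21 and BIRC5 by −0.17. In the set around MCL1 protein turnover, FBXW7 differed by −0.23, MARCHF5 by 0.15 and USP13 by 0.20. Of the 13 transcription factors 3 were more positive and 3 more negative, where 6.56% and 6.93% of all genes tested were. The largest differences were those of DDIT3 (0.92), JUN (−0.88) and TP73 (−0.71).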

How the results depend on the processing

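Of 1085 member results under alternatives, 968 kept their direction and call, 68 lost the call, 18 gained it and 31 turned sign, none of the last called in the fit reported. Scaling moved the centre: upper-quartile factors and library totals shifted the median log2 change of all genes with paclitaxel by 0.12 and 0.18 in GLI2 KO cells and by 0.13 and 0.16 in WT cells. All genes called higher and lower with paclitaxel numbered 7250 and 7077 in GLI2 KO cells (9324 and 4791 with upper-quartile factors, 10398 and 3831 with library totals) and 7613 and 7047 in WT cells (9905 and 4731, 10352 and 4295). For the difference of the paclitaxel effect they numbered 1441 and 1522, 1770 and 1249 with library totals, and 1298 and 1707 with upper-quartile factors. Members called lower in GLI2 KO than in WT cells in DMSO numbered 3, and 1 to 3 with a library left out or 1 without both GLI2 KO libraries 11 and 12; members with a more positive paclitaxel effect in GLI2 KO cells numbered 1, and 2 with DESeq2, limma-voom or no robust estimation and 1 to 2 with a library left out. The cause was not tested.

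Signs turned as follows (log2). With paclitaxel in GLI2 KO cells BCL2L2 took 0.00198 (DESeq2), 0.00200 (RLE), 0.171 (library totals), 0.0533 (minimum count 50), 0.0156 (only 2 groups), 0.116 (upper-quartile) and −0.0293 to 0.0238 with a library left out; BCL2A1 took 0.0859 (library totals), 0.0308 (upper-quartile) and −0.384 to 0.0687 with a library left out; BTRC took 0.0145 and CDC20 0.00863 (library totals), both called lower in the fit reported. With paclitaxel in WT cells MCL1 took 0.0511 (library totals) and 0.0281 (upper-quartile). For GLI2 KO against WT in paclitaxel PMAIP1 took −0.00368 (minimum count 50), −0.00155 (no filter), −0.0257 (upper-quartile) and −0.0137 to 0.0237 with a library left out. In DMSO BAK1 took −0.000999 (DESeq2), −0.00101 (RLE), −0.0217 (library totals), −0.0183 (upper-quartile) and −0.0430 to 0.0667 with a library left out, and MCL1 took −0.00751 (library totals), −0.00370 (upper-quartile) and −0.0372 to 0.105 with a library left out. For the difference of effects with a library left out BCL2 ran from −0.0588 to 0.00861 and BAX from −0.171 to 0.00978. No paired analysis was made because the titles give no replicate numbers shared by the groups. The GLI2 KO libraries, numbered 7 to 12, alternate between DMSO and paclitaxel, and no label says whether neighbours are pairs. BCL2A1 was not tested at a minimum count of 50, and a fit of only 2 groups cannot give the difference of effects. With 20 in place of 50 neighbours, 18 of 50 medians moved by more than the member's standard error. The depth limits BCL2A1, HRK and BCL2L10, which rest on few counts.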
